A study of Homo sapiens with 4 samples.

Results

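A group of 10 genes that earlier work tied to the colonisation of the brain by breast cancer cells was followed in MDA-MB-231Br cells: EGFR, PTGS2, HBEGF, ANGPTL4, PELI1, FSCN1, L1CAM, SERPINB2, SERPINI1 and CTSS. The genes were listed by symbol, and 7 of the 10 had a probe set named in the platform annotation, 1 probe set each. FSCN1, SERPINB2 and SERPINI1 had none and were not measured here. Within the series, the 7 stood among 14884 genes with a named probe set, of which 12755 passed the filter on low values. All 7 measured genes passed it.

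The arrays compared 2 samples of cells transduced with lentivirus carrying a short hairpin RNA against YTHDF3 (shYTHDF3) with 2 samples transduced with a control hairpin (shControl). YTHDF3 belongs to the reader proteins that recognise N6-methyladenosine in RNA in the cytoplasm. All 4 samples were selected with puromycin, so both groups carry an integrated lentivirus and had the drug. The cell line field of the labels reads MDA-MB-231Br, a derivative of the human breast cancer line MDA-MB-231 that is used as a model of brain metastasis, whereas the sample titles read MDA-MB-231. The labels do not say how many hairpins or clones were used. They also do not say that samples sharing a label were grown as separate cultures, and p-values therefore reflect how far these samples vary, which may be technical variation. Values are log2 expression as deposited, and differences are shYTHDF3 minus shControl on that scale.

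To grow in the brain, a tumour cell has to leave the blood through the tight endothelium of the blood-brain barrier and then survive among astrocytes and microglia. HBEGF, an EGFR ligand, and PTGS2, which makes prostaglandins that loosen endothelial junctions, were identified in earlier work as mediators of that passage, and CTSS, a secreted cysteine protease, cleaves a junctional adhesion molecule of the barrier. In the tissue itself, SERPINB2 and SERPINI1 inhibit the plasminogen activators and so shield the cells from plasmin, which would otherwise cleave L1CAM, the adhesion molecule with which the cells spread along capillaries.

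The labelled cell type was set against marker lists. Of 10 markers of this mesenchymal triple-negative line 6 had a probe set, and their means over the 4 arrays ran from 8.20 to 12.4. ESR1 and PGR, the oestrogen and progesterone receptors that such cells lack, stood at 2.91 and 2.68 in shYTHDF3 and at 2.84 and 2.66 in shControl arrays, below the array medians of 3.20 to 3.22. All 4 measured markers of astrocytes, neurons and microglia and all 4 of fibroblasts and endothelium had means below 4, up to 3.79 and 2.91. Among the 3 measured leukocyte markers CD14 and LYZ were also below 4, and CD68, a lysosomal protein that tumour cells express too, averaged 10.6. Of the 9 measured luminal markers 5 had means of at least 5, up to 6.83, namely CLDN7, EPCAM, KRT19, CLDN3 and FOXA1. ERBB2 had no named probe set, so the triple-negative state was checked only in part. No marker in any of these lists passed the test between the groups described next. Probe sets named YTHDF3 numbered 0, and the level of the targeted gene, which would check the labels, was not analysed here.

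PTGS2, 1 of the 7 measured genes, differed between the groups with limma at an adjusted p under 0.05 over all 12755 genes, and it was lower in shYTHDF3 cells. Over all tested genes 0.753% were called, 96 in number, 0.666% as lower and 0.0862% as higher. The median log2 difference of the 7 genes was -0.27, beside 0.00402 for all tested genes, and 6 of the 7 were below 0, beside 49.2% of all tested genes. The arrays of the groups did not overlap for 6 of the 7 genes, beside 45.5% of all tested genes. Of these 6, 5 were lower and 1 was higher, beside 22.8% and 22.6% of all tested genes. At an unadjusted p under 0.05 there were 3 of the 7, all lower, beside 8.48% of all tested genes that were lower and 6.24% that were higher at that p. The genes were chosen with earlier results of these data known, so these shares describe the group and do not test it. The smallest 2-sided p that a permutation of 4 arrays in pairs allows is 0.333. With 2 residual degrees of freedom per gene, limma combines each gene's own spread with that of the other genes.

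**Figure D1:**
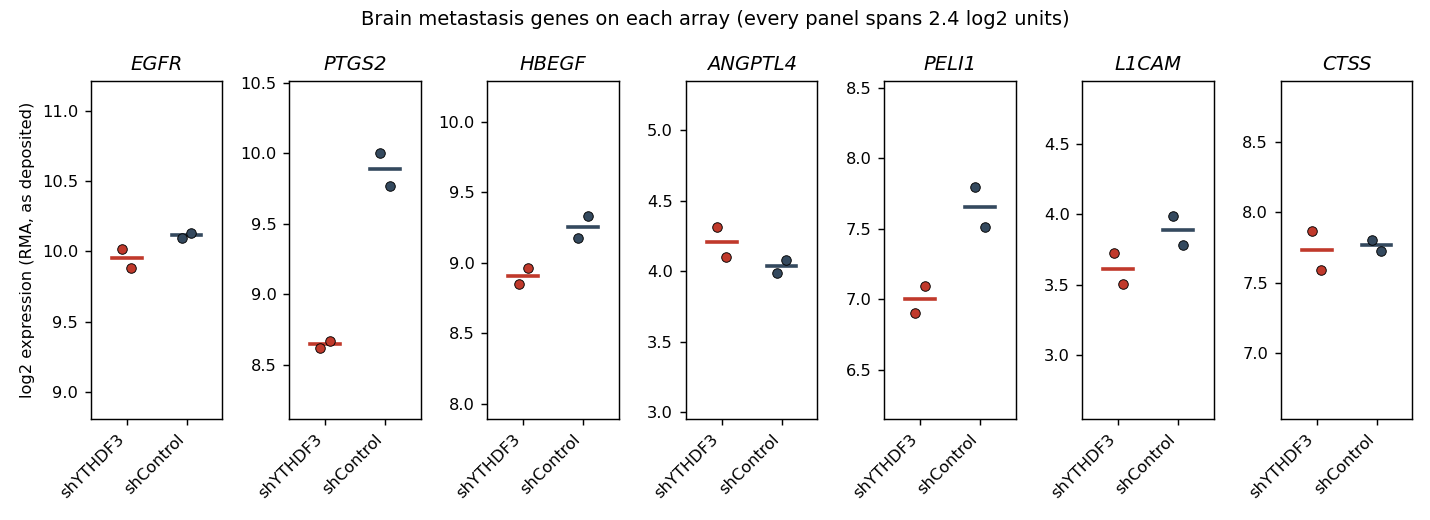
Each panel shows one gene, with log2 expression on the vertical axis, the 2 shYTHDF3 arrays on the left and the 2 shControl arrays on the right; points are arrays and horizontal lines are group means. PTGS2 shows the widest separation, with shYTHDF3 arrays at 8.62 and 8.67 and shControl arrays at 10.0 and 9.77, and CTSS is the gene whose groups overlap.

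PTGS2 is cyclooxygenase 2, the inducible enzyme that commits arachidonic acid to prostaglandin synthesis. Its values were 8.62 and 8.67 in the shYTHDF3 arrays, against 10.0 and 9.77 in the shControl arrays. Both knockdown arrays lay far under both control arrays, and the space between the groups, 1.10 on the log2 scale, was several times the distance within either pair, 0.0453 for shYTHDF3 and 0.238 for shControl. PTGS2 averaged 8.64 ± 0.03 in shYTHDF3 and 9.89 ± 0.17 in shControl arrays (SD, n = 2 each). The transcript fell by 1.24 on the log2 scale (SE 0.14, adjusted p = 0.013 from limma), which is 2.37-fold with a 95% interval of 1.89-fold to 2.97-fold. Ordered by their difference, PTGS2 was number 44 from the lowest of the 12755 tested genes. Single array pairs differed by -1.38 to -1.10. The call needed all 4 arrays. With 1 array left out the difference ran from -1.36 to -1.12 and the call was lost each time. Such fits leave 1 array in a group and called fewer of all tested genes, so this loss was not particular to PTGS2. In bulk RNA, fewer cells with the transcript and less of it per cell cannot be told apart.

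The sequence just before the PTGS2 start site is shown because PTGS2 was the gene that fell, with those of PELI1, which had the next largest difference, and EGFR, whose transcript did not pass. The RefSeq promoter table held 8 of the 10 genes. The sequences are the 250 bases before the start site, in the direction of transcription, in the build GRCh38.p14, at chr1:186680424-186680673 on the minus strand, chr2:64144421-64144670 on the minus strand and, for the first of 2 EGFR start sites in the table, chr7:55018767-55019016 on the plus strand. Capitals mark matches on either strand to any of 6 motifs: the TATA box TATAAA, the core CGTCA of the cyclic AMP response element, the AP-1 motif TGANTCA, the letters GGGACT that open a common NF-kB site, the E-box CACGTG and the GC box GGGCGG.
PTGS2: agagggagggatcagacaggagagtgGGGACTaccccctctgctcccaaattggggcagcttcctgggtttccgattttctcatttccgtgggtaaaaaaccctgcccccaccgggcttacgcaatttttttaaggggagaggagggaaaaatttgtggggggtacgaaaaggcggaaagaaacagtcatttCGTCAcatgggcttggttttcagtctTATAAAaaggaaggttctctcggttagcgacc
PELI1: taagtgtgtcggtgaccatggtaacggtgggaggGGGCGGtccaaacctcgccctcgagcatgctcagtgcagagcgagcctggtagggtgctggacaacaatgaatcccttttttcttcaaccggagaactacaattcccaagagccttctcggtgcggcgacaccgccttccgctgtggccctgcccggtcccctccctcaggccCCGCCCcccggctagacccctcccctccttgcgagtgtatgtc
EGFR: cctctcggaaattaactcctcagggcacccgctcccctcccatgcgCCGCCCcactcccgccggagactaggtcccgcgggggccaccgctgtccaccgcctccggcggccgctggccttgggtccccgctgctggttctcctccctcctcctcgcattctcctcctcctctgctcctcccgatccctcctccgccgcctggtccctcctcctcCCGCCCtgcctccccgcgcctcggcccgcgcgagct

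Counting back from -1 at the base before the start, the PTGS2 sequence held TATAAA at -32 to -27, CGTCA at -58 to -54 and GGGACT at -224 to -219. Of 27305 gene promoters of the same length, 11.1% held TATAAA, 21.7% CGTCA and 16.5% GGGACT. PELI1 and EGFR each held 2 GC boxes, a motif found in 42.3% of promoters, and none of the other 5 motifs. Their GC contents were 50.4% for PTGS2, 62.4% for PELI1 and 73.6% for EGFR, beside a median of 58% over all promoters. AP-1 letters were in 6.6% and the E-box in 6.49% of all promoters, and neither was in these 3. ANGPTL4, which had a positive difference and did not pass, also held TATAAA, at -29 to -24. ERRFI1, a gene of the related lists that passed as lower, held only the GC box, at -70 to -65. A match describes the letters only, and binding was not measured. A link between motifs and differences was not tested.

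The receptor EGFR had a high and almost even signal on all arrays. Its values were 10.0 and 9.89 in the shYTHDF3 arrays, against 10.1 and 10.1 in the shControl arrays. Both knockdown arrays were the lower ones, by no more than 0.248 in any pair. The mean was 9.95 ± 0.09 in shYTHDF3 and 10.1 ± 0.03 in shControl arrays (SD, n = 2 each), a log2 difference of -0.16 that did not pass (limma, adjusted p = 0.61). Its 95% interval, -0.47 to 0.14, leaves room for a transcript up to 1.38-fold lower or 1.10-fold higher. These arrays measured transcript only, and EGFR protein was not measured.

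Its ligand HBEGF, a membrane-anchored growth factor that is shed to activate EGFR and ERBB4, had 8.85 and 8.96 in the shYTHDF3 arrays, against 9.18 and 9.33 in the shControl arrays. The groups did not overlap, and the space between them, 0.212, was wider than the distance within either pair. HBEGF averaged 8.91 ± 0.08 in shYTHDF3 and 9.25 ± 0.11 in shControl arrays (SD, n = 2 each), a log2 difference of -0.35 (95% interval -0.66 to -0.03) that did not pass over all genes (adjusted p = 0.30 from limma).

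Around this receptor and ligand, none of the 9 tested genes among 15 ERBB receptors and ligands passed, and their median difference was -0.16. The ligands EREG (epiregulin) and NRG1 (neuregulin 1) had log2 differences of -0.56 and -0.50, with adjusted p-values of 0.16 and 0.15 from limma. EREG averaged 9.53 ± 0.21 in shYTHDF3 and 10.1 ± 0.09 in shControl arrays, and NRG1 averaged 5.42 ± 0.07 in shYTHDF3 and 5.91 ± 0.04 in shControl arrays (SD, n = 2 each). Both stood below their control arrays without overlap, and with HBEGF they made up the 3 members of this list at an unadjusted p under 0.05, all lower, beside 8.48% of all tested genes that were lower at that p. When limma's variance model followed the signal intensity (an intensity trend), EREG passed (adjusted p = 0.036 from limma). That setting called 375 of all tested genes, against 96 without it. With the replicate number as a block EREG did not pass (adjusted p = 0.27 from limma). ERBB2, TGFA and AREG had no named probe set. The 7 proteins that release HB-EGF from the membrane or act with that step were all tested and none passed, with ADAM12, ADAM17 and ADAM9 at 0.48, -0.23 and -0.18. ADAM12 had a weak signal, 3.80 in shYTHDF3 and 3.32 in shControl arrays on average. With 1 array left out ADAM12 ran from 0.30 to 0.67 and ADAM17 from -0.32 to -0.13.

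A feedback inhibitor of the receptor did change. ERRFI1, also known as MIG6, is an EGFR-induced protein that binds the kinase domain of EGFR and blocks it. It had 11.5 and 11.6 in the shYTHDF3 arrays, against 12.4 and 12.5 in the shControl arrays. Arrays of a group lay close together and the groups were well apart. ERRFI1 fell by 0.92 on the log2 scale (SE 0.13, adjusted p = 0.028 from limma), or 1.89-fold. As for PTGS2, the call was lost when any 1 of the 4 arrays was left out, at adjusted p-values of 0.17 and 0.13 without shYTHDF3 replicates 1 and 2 and of 0.35 and 0.29 without shControl replicates 1 and 2, while the difference stayed between -0.95 and -0.89. With the replicate number as a block its adjusted p was 0.15. It was the 1 of 11 tested genes of EGFR feedback and trafficking that passed (median of the list -0.06). SOCS3, an inhibitor of cytokine receptor signalling, had 6.68 ± 0.13 in shYTHDF3 and 5.89 ± 0.24 in shControl arrays (SD, n = 2 each), a difference of 0.79 (limma, adjusted p = 0.092). Under the intensity trend SOCS3 passed as well (adjusted p = 0.029 from limma). It did not pass with the replicate block (adjusted p = 0.23 from limma) or on the mean of its probe sets (adjusted p = 0.12 from limma). The second SOCS3 probe set, close to the filter value of 2.54, had a difference of 0.42. SOCS3 was named after its values were seen.

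**Figure D2:**
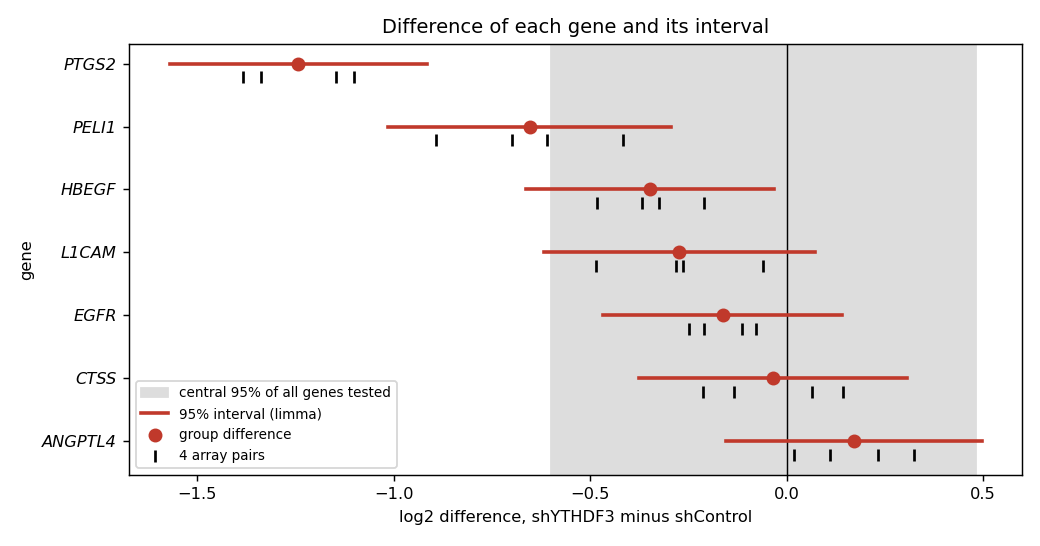
The horizontal axis is the log2 difference, shYTHDF3 minus shControl; red points are group differences, red lines limma's 95% intervals, black ticks the 4 array pairs, and the grey band spans the central 95% of all tested genes, -0.60 to 0.48. PTGS2 at -1.24 lies wholly outside the band, PELI1 at -0.65 has its point just outside, and the other 5 points lie within it.

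PELI1, an E3 ubiquitin ligase of the Pellino family that acts in Toll-like and interleukin-1 receptor signalling, had the second largest difference. Its values were 6.90 and 7.10 in the shYTHDF3 arrays, against 7.80 and 7.51 in the shControl arrays. The knockdown arrays were both lower, and the space between the groups, 0.416, exceeded the distances within them, 0.194 for shYTHDF3 and 0.282 for shControl. The mean was 7.00 ± 0.14 in shYTHDF3 and 7.65 ± 0.20 in shControl arrays (SD, n = 2 each), a log2 difference of -0.65 (95% interval -1.01 to -0.29, adjusted p = 0.13 from limma). PELI1 did not pass, although with the intensity trend its adjusted p from limma was 0.034. Over its alternatives the adjusted p ran from 0.034 to 0.43.

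Tested here were 11 genes: PELI1, its relatives and the kinases and adaptors around them. Of these, 9 had a negative difference, beside 49.2% of all tested genes. None passed, and the median was -0.23. PELI2 and PELI3, the 2 paralogues of PELI1, had -0.29 and -0.30, both at an adjusted p of 0.44 from limma. With 1 array left out PELI2 ran from -0.45 to -0.12 and PELI3 from -0.49 to -0.10. TICAM1, the adaptor TRIF of Toll-like receptor 3, averaged 5.28 ± 0.13 in shYTHDF3 and 5.80 ± 0.05 in shControl arrays (SD, n = 2 each) and differed by -0.53 (adjusted p = 0.15 from limma). MAP3K7, the kinase TAK1, stood at -0.26. PELI2 and PELI3 were named after their values were seen.

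Neither the secreted ANGPTL4 nor the surface protein L1CAM passed. ANGPTL4, a secreted inhibitor of lipoprotein lipase that also acts on endothelial junctions, had 4.31 and 4.10 in the shYTHDF3 arrays, against 3.99 and 4.08 in the shControl arrays. It was the only one of the 7 with a positive difference, and the groups were separated by 0.0177, less than the distance within either pair. The log2 difference was 0.17 (95% interval -0.15 to 0.50, adjusted p = 0.62 from limma), and it ran from 0.06 to 0.28 with 1 array left out. Its signal was only about 1 log2 unit above the array median, where RMA can compress differences. Whether RMA did so here was not tested. Relatives ANGPTL7 and ANGPTL6 stood at -0.39 and -0.33, or at -0.62 to -0.16 and -0.52 to -0.15 with 1 array left out, and none of the 4 tested family members passed. The signals of both relatives were weak too. ANGPTL7 averaged 2.69 in shYTHDF3 and 3.09 in shControl arrays, and ANGPTL6 averaged 3.65 in shYTHDF3 and 3.98 in shControl arrays.

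L1CAM had 3.72 and 3.50 in the shYTHDF3 arrays, against 3.99 and 3.79 in the shControl arrays. These values lay within 1 log2 unit of the array medians, a weak signal in both groups. Both knockdown arrays were under both control arrays by a space of 0.0618, well below the distances within the pairs, 0.220 for shYTHDF3 and 0.203 for shControl. The difference was -0.27 (95% interval -0.62 to 0.07, adjusted p = 0.44 from limma), and -0.38 to -0.16 with 1 array left out. None of the 5 tested genes of the L1 family and its partners passed, and NRP1, a co-receptor of L1CAM, and EZR, ezrin, stood at -0.24 and 0.22.

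The protease CTSS had 7.87 and 7.59 in the shYTHDF3 arrays, against 7.81 and 7.73 in the shControl arrays. Both control values fell between the knockdown values, so the groups overlapped. CTSS averaged 7.73 ± 0.20 in shYTHDF3 and 7.77 ± 0.06 in shControl arrays (SD, n = 2 each), a difference of -0.04 (95% interval -0.38 to 0.31, adjusted p = 0.95 from limma), and the sign turned without shYTHDF3 replicate 2 (0.10) and without shControl replicate 1 (0.00378). Among 14 tested cysteine cathepsins and their inhibitors none passed and the median was -0.05. CST3, the inhibitor cystatin C, stood at -0.41 and the cathepsins CTSW and CTSC at -0.40 and 0.32, with adjusted p-values of 0.22 to 0.30 from limma. CTSW had a weak signal, 3.39 in shYTHDF3 and 3.79 in shControl arrays on average.

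For the serpins, little of the plasminogen system could be read. Of 19 listed genes 3 were tested: S100A10 and ANXA2, which together form a plasminogen receptor on the cell surface, and PLG, plasminogen itself. Their differences were 0.15, -0.06 and 0.10, and none passed. PLG averaged 2.83 in shYTHDF3 and 2.73 in shControl arrays. That is below the array medians of 3.20 to 3.22, a weak signal. With 1 array left out S100A10 ran from 0.01 to 0.29 and ANXA2 from -0.16 to 0.04. PLAU, PLAT and PLAUR had no named probe set and were not analysed here. The partners of fascin in filopodia, 10 genes tested without FSCN1, had a median of 0.02 and none passed, with DIAPH1 (a formin) at 0.33, DIAPH2 at -0.20 and CTTN (cortactin) at 0.18.

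In the prostaglandin pathway PTGS2 was the 1 of 12 tested genes that passed on the probe set of highest mean. The median of the list was 0.11, and 8 of the 12 were above 0, beside 6474 of all 12755 tested genes. PTGS1, the constitutive cyclooxygenase, had 3.60 ± 0.11 in shYTHDF3 and 3.72 ± 0.19 in shControl arrays (SD, n = 2 each), a weak signal. PTGES3, a cytosolic prostaglandin E synthase that is also the HSP90 cochaperone p23, differed by 0.38 (adjusted p = 0.24 from limma) on the probe set of highest signal. A second PTGES3 probe set had 7.11 and 7.28 in the shYTHDF3 arrays, against 5.45 and 6.09 in the shControl arrays, a difference of 1.43. The 2 probe sets share a direction and differ in size, and their mean, 0.90, gave an adjusted p of 0.049962 from limma. That is just under the threshold of 0.05, so PTGES3 passed as higher when probe sets were averaged. PTGES, the inducible prostaglandin E synthase, differed by 0.08. The difference of PTGS1, -0.13, turned to 0.00581 without shControl replicate 2. PTGS1, PTGES3 and PTGES were named after their values were seen.

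**Figure D3:**
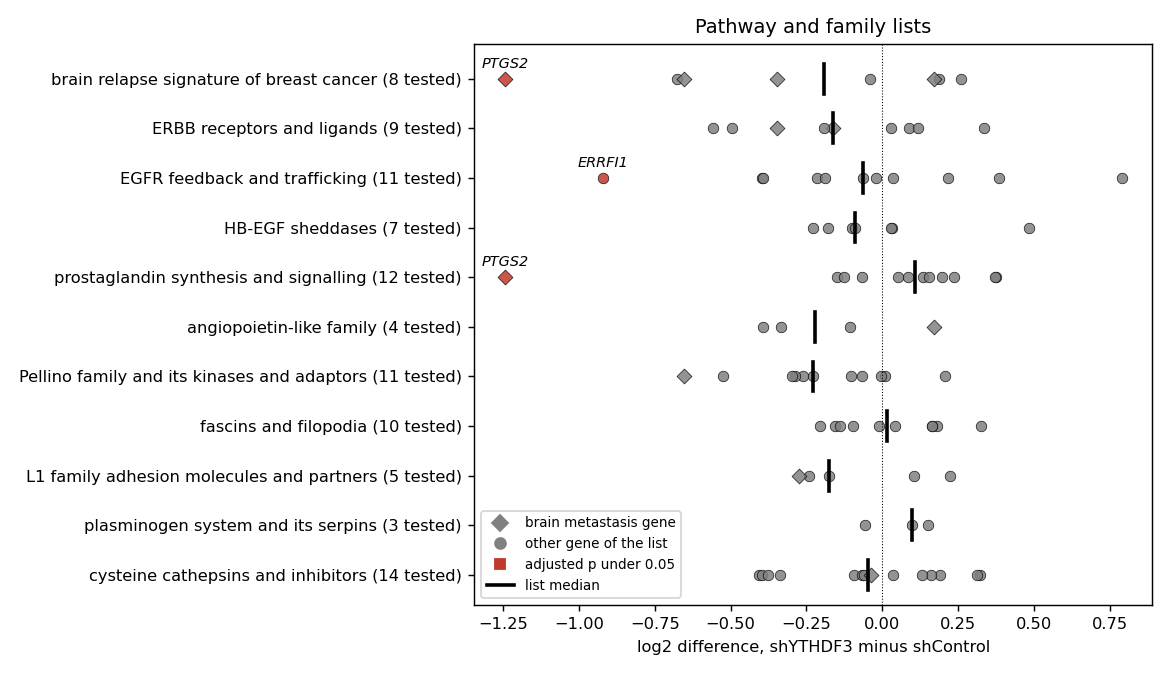
Each row is one list of related genes and the horizontal axis is the log2 difference, shYTHDF3 minus shControl; diamonds are genes of the brain metastasis group, circles other genes, red symbols passed limma's test and black bars are list medians. PTGS2 and ERRFI1 are the red symbols, and every list median lies between -0.23 and 0.11.

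A list drawn from earlier work on brain relapse in breast cancer, which holds 5 of the 10 genes beside ST6GALNAC5 and others, had 8 of 18 genes tested. Of these 8, PTGS2 fell and 7 did not pass, and the median was -0.19. LTBP1, which anchors latent TGF-beta in the matrix, averaged 5.23 ± 0.24 in shYTHDF3 and 5.90 ± 0.04 in shControl arrays (SD, n = 2 each), a difference of -0.68 (limma, adjusted p = 0.12). CSF3, the granulocyte growth factor, and MMP1, interstitial collagenase, had higher means in the knockdown arrays by 0.26 and 0.19 and did not pass. LTBP1, CSF3 and MMP1 were named after their values were seen. Each of the 8 had groups that did not overlap, beside 45.5% of all tested genes. Of the 8, 5 were lower and 3 higher, beside 22.8% and 22.6% of all tested genes. PTGS2, PELI1, HBEGF and ANGPTL4 were already counted among the measured brain metastasis genes. Some separations were small, as for CSF3, with 10.0 and 9.85 in shYTHDF3 and 9.54 and 9.83 in shControl arrays. Over the 11 lists, with the 10 brain metastasis genes left out, 83 genes were tested and 1, ERRFI1, passed, which is 1.2%, beside 0.753% of all tested genes.

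**Figure D4:**
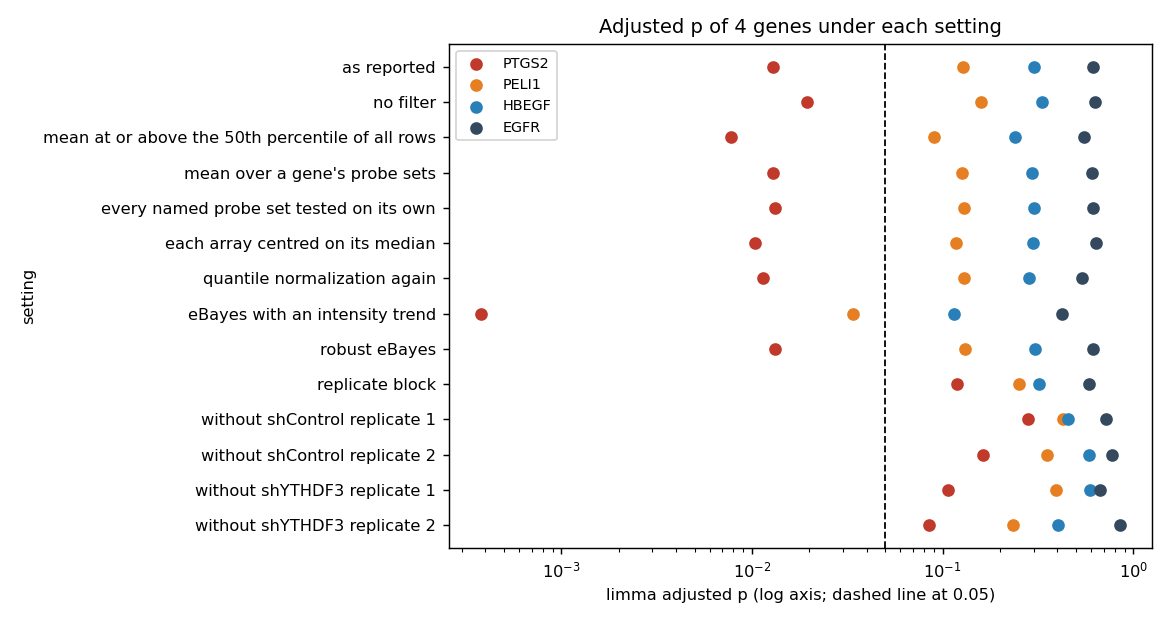
Rows are the analysis settings and the horizontal axis is limma's adjusted p on a log scale for PTGS2, PELI1, HBEGF and EGFR, with the threshold of 0.05 dashed. PTGS2 is left of the line in all settings that keep 4 arrays and no replicate block, PELI1 in 1, with the intensity trend, and HBEGF and EGFR in none.

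The genes with values most like those of PTGS2 over the 4 arrays, after each gene's mean was removed, were ZNF555, GPCPD1 and MXD1, at Euclidean distances of 0.0756, 0.102 and 0.121. Their log2 differences were -1.17, -1.22 and -1.19. For EGFR the nearest were SURF4, JPH4 and ANAPC1P2, at distances of 0.0134, 0.0134 and 0.0200, with differences of -0.15, -0.15 and -0.17. With 4 arrays in 2 groups such likeness describes these samples only.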

How the data were processed

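Affymetrix arrays were hybridised with biotinylated cRNA made from Trizol-extracted total RNA, per the labels' protocols. The authors deposited log2 expression values, 1 row per probe set. They were made with RMA, per the submitters' processing notes, which give no version or settings. RMA normalizes between arrays and compresses weak signals. Values ran from 1.08 to 14.0 over 53617 probe sets, of which 16098 had 1 gene symbol, 0 several and 37519 none here. All 16098 Entrez identifiers matched RefSeq, and 0 symbols changed. Detection calls were not used. Precision is limited by the number of arrays.

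For every gene the probe set of highest mean was used. Genes whose mean reached the 30th percentile of all rows (2.54) were tested with lmFit and eBayes of limma 3.58.1 (R 4.3.3), 2-sided and without covariates. Benjamini-Hochberg adjustment ran over the 12755 tested genes, and the threshold was 0.05. The script was tested on simulated data. Median SE was 0.142, with 2 residual and 5.30 prior degrees of freedom. Across the tested genes, arrays correlated at 0.992 within both groups and at 0.986 to 0.987 between them.

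Named were all measured brain metastasis genes and, from each of 11 related lists, genes past the threshold or, where none passed, up to 3 of smallest p. Genes outside this rule are said to have been named after their values were seen. The genes and lists were chosen with earlier results of these data known. Filter, choice of probe set, normalization, variance model, replicate block and threshold were varied, and each array was left out in turn. Promoter sequences are RefSeq's. Motifs were chosen after the results were seen.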

Additional observations from a re-analysis of the deposited data

How the results depend on the processing

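The difference of EGFR stayed below 0 and short of the threshold under all 13 alternatives (-0.23 to -0.10, adjusted p from limma 0.42 to 0.86). PTGS2 stayed lower under all 13 (-1.36 to -1.12, adjusted p 0.00038 to 0.28) and kept its call in 8. Leaving out 1 array ended it each time, with differences of -1.36 to -1.12, as did the replicate block (-1.24, adjusted p = 0.12), which also ended that of ERRFI1 (-0.92, adjusted p = 0.15). Among the 7 genes, 2 were called with the intensity trend, 0 with the replicate block and 0 to 0 with 1 array left out, where 2 to 3 had an unadjusted p under 0.05 from limma (3 with the block). Their median ran from -0.29 to -0.16 with 1 array left out, at -0.16 without shYTHDF3 replicate 2 and -0.18 without shControl replicate 1. Over all genes limma called 96, against 167 with the filter at the 50th percentile, 375 with the intensity trend, 250 at a threshold of 0.10, 11 with the replicate block and 0 to 36 with 1 array left out. The 0 came without either control array, where 1370 and 1392 genes had an unadjusted p under 0.05 from limma. The cause of these shifts was not tested, beyond the fewer samples or degrees of freedom that a left-out array or the block leaves. CTSS, at -0.04, took 0.10 without shYTHDF3 replicate 2 and 0.00378 without shControl replicate 1 (-0.17 to 0.10 over the left-out arrays), and ANXA2, at -0.06, took 0.0427 without shYTHDF3 replicate 1 and 0.00434 without shControl replicate 2. PTGS1, at -0.13, took 0.00581 without shControl replicate 2 (-0.26 to 0.00581 over the left-out arrays). Of 38 genes named with a difference that did not pass, 22 moved by over 1.5 times when 1 array was left out, 3 of them (CTSS, ANXA2 and PTGS1) with a turn of direction. Deviations of same-numbered arrays from their group means correlated at 0.0432. The labels name no day or batch behind the numbers, so whether same-numbered arrays were handled together is not known. With 4 arrays, the differences of ANGPTL4 and L1CAM rest on weak signals, and an effect of background on them was not tested.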
